A study of Mus musculus with 6 samples.

Results

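The genes described here encode 6 secreted proteins of the acute-phase response and of innate defence: Saa3, Lcn2, Hp, Slpi, Clu and Camp. They were taken as a list of gene symbols, and every probe set that the platform annotation assigns to one of these symbols alone was used, which gave 11 of the 12488 probe sets on the array. Expression was measured on 6 single-colour Affymetrix arrays of RNA from mouse peritoneal exudate cells, a macrophage-rich preparation, all with the strain label C57BL/6. Cells without NF-IL6 (KO), cells of a knock-in line labelled KI(LAP) (KI) and wild-type cells (WT) were each measured after lipopolysaccharide with interferon-γ (LPS + IFN-γ, here "stimulated") and untreated. Stimulation lasted 12 h in the KO and KI labels and has no stated length in the WT label, so genotype and stimulation time cannot be told apart if the times differed. The labels did not say how the alleles were made, whether an array stood for 1 animal or a pool, or whether the cells were elicited. There was 1 array in each of the 6 groups, so a difference between groups has no replicate check and neighbouring levels cannot be ranked beyond replicate error.

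NF-IL6 is C/EBPβ, a transcription factor of the leucine-zipper class that the Cebpb gene encodes. LAP denotes its activating form. In the acute-phase response, interleukin 6, interleukin 1 and tumour necrosis factor act on liver and other cells, where C/EBP, STAT3 and NF-κB factors raise the transcription of genes for secreted proteins. Macrophages make several of these proteins themselves. Saa3 is a serum amyloid A apolipoprotein made outside the liver in mice, Lcn2 (lipocalin 2) binds the iron-carrying siderophores of bacteria, and Hp (haptoglobin) binds free haemoglobin. Slpi inhibits the serine proteases of neutrophils, Clu (clusterin) is an extracellular chaperone, and Camp is the precursor of the mouse cathelicidin peptide.

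Values are MAS5 signals on a linear scale. A signal of 98.0, the 40th percentile of all values, was used as a floor before log2 was taken. Folds that set a measured signal against one below that floor are lower bounds and carry the words "at least". Of the 11 probe sets, 10 exceeded the floor on at least 1 array. The remaining one, Slpi 162329_r_at, lay between 22.4 and 55.9 on the 6 arrays and entered no comparison. Median signals of the arrays ran from 131 to 185, and 55.7% to 65.8% of probe sets exceeded the floor. The targeted gene matched the labels: Cebpb had signals of 59.0 and 12.7 in stimulated and untreated KO cells, 5890 and 2284 in KI cells, and 9329 and 5492 in WT cells. No source used here told whether its probe set lies inside the altered stretch. All 10 macrophage markers exceeded the floor on some array, with Lyz2 between 13500 and 19990 and Cd68 between 9609 and 19430, and summed signals of 40190 and 58180 in stimulated and untreated KO cells, 43830 and 60660 in KI cells, and 52150 and 59410 in WT cells. Others differed between genotypes. Stimulated KO cells were at least 2-fold below WT for 2 of the 10, against 3.24% of all probe sets. These were Csf1r (1799 in KO, 2901 in KI and 4787 in WT cells) and Cd14 (2845 in KO, 2642 in KI and 7915 in WT cells), the direction of the 6 genes described here. Untreated KO cells were at least 2-fold above WT for 2, against 6.3% of all probe sets, among them Itgam (1563 in KO, 1263 in KI and 474 in WT cells). They were that far below WT for 1, Cd5l, against 4.3%. The part of these macrophage differences in the results below was not tested.

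The genes lie on separate chromosomes except for Lcn2 and Slpi. In RefSeq's GRCm38.p6 annotation Saa3 spans positions 46711998 to 46719615 of chromosome 7, Lcn2 32384637 to 32387739 and Slpi 164354070 to 164356507 of chromosome 2, Hp 109575128 to 109579172 of chromosome 8, Camp 109847377 to 109849456 of chromosome 9 and Clu 65968483 to 65981548 of chromosome 14. The promoters of Saa3, Slpi, Lcn2 and Camp are printed because these genes were lower without NF-IL6 on at least 1 pair of arrays, and 4 of the 6 genes had an entry in RefSeq's promoter table for that build. Each runs 5′ to 3′ from 250 bases before to 50 bases after the transcript start. The Saa3 window lies wholly inside the gene span given above, so its start is not the outer end of that span. Capitals mark matches to TTNNGNAA, a loose form of the C/EBP motif, on either strand.
Saa3 promoter (chr7:46715627-46715926, minus strand): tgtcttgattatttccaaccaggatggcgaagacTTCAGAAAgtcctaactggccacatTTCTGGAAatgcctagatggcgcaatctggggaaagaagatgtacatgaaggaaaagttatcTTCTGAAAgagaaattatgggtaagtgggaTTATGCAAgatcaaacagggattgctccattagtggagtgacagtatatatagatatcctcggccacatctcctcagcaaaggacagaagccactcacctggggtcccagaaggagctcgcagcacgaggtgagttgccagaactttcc
Slpi promoter (chr2:164356458-164356757, minus strand): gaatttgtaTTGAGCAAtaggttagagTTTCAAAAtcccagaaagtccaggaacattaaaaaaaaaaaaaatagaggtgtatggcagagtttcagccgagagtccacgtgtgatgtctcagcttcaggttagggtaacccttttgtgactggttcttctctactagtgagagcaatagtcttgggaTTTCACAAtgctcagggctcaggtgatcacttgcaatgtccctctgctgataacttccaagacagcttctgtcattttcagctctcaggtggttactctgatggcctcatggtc
Lcn2 promoter (chr2:32387690-32387989, minus strand): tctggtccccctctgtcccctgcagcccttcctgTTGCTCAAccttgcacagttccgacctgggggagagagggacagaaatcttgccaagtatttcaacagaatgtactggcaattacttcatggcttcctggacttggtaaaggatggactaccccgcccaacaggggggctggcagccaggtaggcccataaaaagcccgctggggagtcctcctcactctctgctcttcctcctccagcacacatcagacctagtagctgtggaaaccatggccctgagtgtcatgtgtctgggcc
Camp promoter (chr9:109849407-109849706, minus strand): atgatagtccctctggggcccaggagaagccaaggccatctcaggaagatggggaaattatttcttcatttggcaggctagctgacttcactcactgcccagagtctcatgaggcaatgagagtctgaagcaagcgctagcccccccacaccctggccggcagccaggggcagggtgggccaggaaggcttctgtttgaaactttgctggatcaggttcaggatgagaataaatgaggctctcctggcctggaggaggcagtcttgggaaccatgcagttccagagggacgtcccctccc

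The Saa3 window held 4 such matches, at -216, -191, -129 and -99 from the start, of which the last reads TTATGCAA. The Slpi window held 3, the Lcn2 window 1 and the Camp window 0. The same letters occurred in 40.7% of 32851 promoter windows, so a match is common. The NF-κB form GGG and CC with any 5 bases between them, searched on both strands and found in 50.8% of the windows, matched 0 times in Saa3 and Slpi, once in Lcn2 and at 2 overlapping positions in Camp. The STAT form TTCNNNGAA, its own reverse complement and present in 8.3% of windows, was in none of these 4 windows. These are descriptions of the letters in the windows and say nothing of binding.

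Each of the 6 genes was lower in KO and in KI than in WT cells in at least 1 state. This uses the probe set of each gene with the highest mean log2 signal. The rule asks for no size, and the share of all probe sets that meet it was not counted. For Lcn2 161684_r_at, KO was 1.28-fold below WT when untreated but 1.03-fold above it when stimulated. Both WT arrays stood above all 4 KO and KI arrays in 7 of the 10 probe sets tested, which cover Saa3, Lcn2, Slpi, Clu and Camp, against 10.6% of all 9344 probe sets. Against the KO arrays alone, both WT arrays were higher in 8 of the 10 probe sets, with 15.3% of all probe sets as background. These 8 cover all 6 genes if a gene is counted by any 1 of its probe sets, a count without a background here. Lcn2 was counted only by 160564_at, whose untreated WT signal (125) and stimulated KO signal (114) were near the floor. Within a state, the WT array was the highest of the 3 genotypes in 9 of 10 probe sets when stimulated and in 10 of 10 when untreated, with 37.4% and 44.8% of all probe sets as background. The exceptions to the first pattern were Lcn2 161684_r_at, Clu 161294_f_at and Hp, whose stimulated WT signal lay below the untreated KI signal. The 6 genes were chosen with earlier results of these data known. No count of them against background, here or below, is therefore an independent result.

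**Figure D1:**
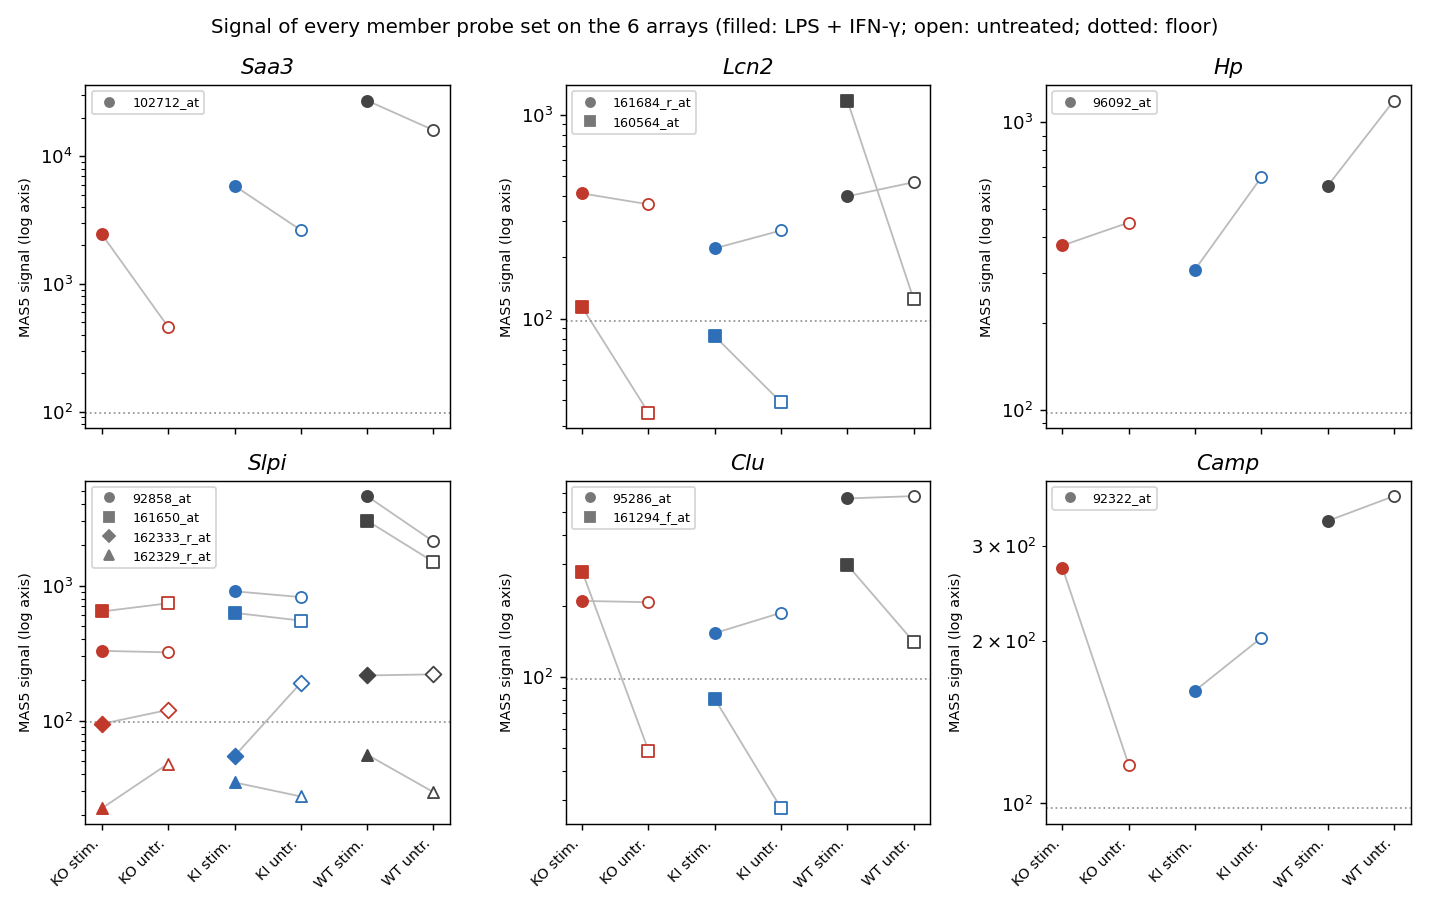
MAS5 signal (log axis) of all 11 probe sets of the 6 genes on each array, with KO arrays in red, KI arrays in blue and WT arrays in dark grey; filled symbols are stimulated and open symbols untreated cells, symbol shape marks the probe set, grey lines join the 2 states of a genotype, and the dotted line is the floor of 98.0. The WT points of Saa3 and of Slpi 92858_at lie above all KO and KI points, and Lcn2 160564_at is high on the stimulated WT array only.

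Saa3 had the widest range. Its signal was 2443 in stimulated and 460 in untreated KO cells, 5879 and 2639 in KI cells, and 27343 and 16042 in WT cells. The genotypes did not overlap, with KO lowest, KI between and WT highest in both states. In stimulated cells the KO signal was 11.2-fold and the KI signal 4.65-fold below WT, and in untreated cells the folds were 34.9 and 6.08. The untreated KO difference of -5.12 on the log2 scale was number 2 from the lowest of 9344 probe sets, after Cebpb itself, and the stimulated one of -3.48 was number 4. KI cells were 2.41-fold above KO cells when stimulated and 5.74-fold above them when untreated.

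Saa3 also responded to the stimulus in every genotype. Its stimulated signal was 5.31-fold the untreated one in KO, 2.23-fold in KI and 1.70-fold in WT cells. The change was larger in KO than in WT cells by 1.64 on the log2 scale, without a test, and the stimulated KO signal was still below the untreated KI and WT signals.

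Slpi, the protease inhibitor, followed the same order on its brightest probe set, 92858_at. That probe set read 328 and 320 in stimulated and untreated KO cells, 906 and 821 in KI cells, and 4592 and 2119 in WT cells. Stimulated KO cells were 14.0-fold and stimulated KI cells 5.07-fold below WT, and untreated KO and KI cells were 6.62-fold and 2.58-fold below it. Only WT cells raised this signal with stimulation by at least 2-fold (2.17-fold, against 1.03-fold in KO and 1.10-fold in KI cells). Of all probe sets, 8.54% were higher by at least that much in WT cells.

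The other Slpi probe sets put WT highest as well but disagreed on the place of KI. Slpi 161650_at read 642 and 738 in stimulated and untreated KO cells, 627 and 550 in KI cells, and 3023 and 1497 in WT cells. Here KI did not exceed KO, so the order of KO and KI for Slpi depended on the probe set. Slpi 162333_r_at read 94.5 and 120 in KO, 54.5 and 190 in KI and 216 and 220 in WT cells, partly under the floor. The suffix _r marks probe sets whose probes did not meet all of the manufacturer's selection rules.

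Lcn2, which withholds iron from bacteria, was raised by the stimulus in WT cells on one of its probe sets. Lcn2 160564_at read 114 and 34.7 in stimulated and untreated KO cells, 82.2 and 39.0 in KI cells, and 1174 and 125 in WT cells. All KO and KI signals were near or under the floor, and only the stimulated WT array was clearly above it. The change in WT cells was 9.41-fold, against at least 1.16-fold in KO cells, and both KI signals were under the floor. Stimulated KO cells were 10.3-fold and stimulated KI cells at least 12.0-fold below WT. The size of the difference in induction between genotypes is set by the floor, since untreated KO and both KI signals lay under it. It was -3.02 for KO minus WT and -3.23 for KI minus WT on the log2 scale, and -1.52 and -2.16 with the floor at the 20th percentile. The other probe set, Lcn2 161684_r_at, read 412 and 364 in KO, 221 and 271 in KI and 398 and 467 in WT cells, with a change of under 1.25-fold in each genotype. The 2 probe sets of Lcn2 therefore disagreed, and the response of Lcn2 rests on 160564_at, singled out after its values were seen.

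**Figure D2:**
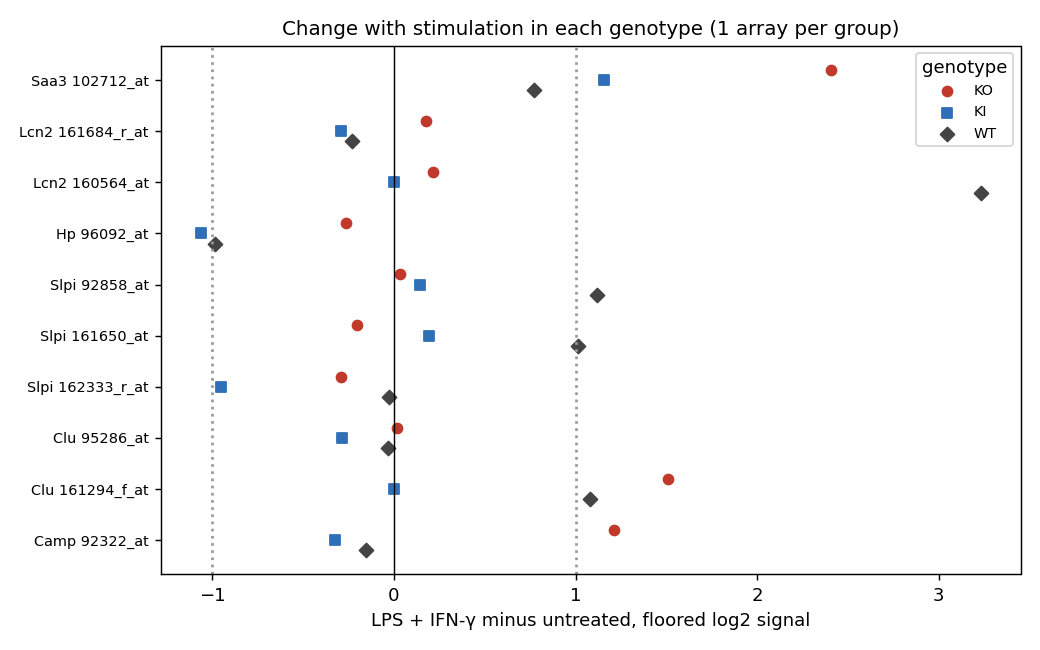
Change with stimulation, as the stimulated minus the untreated floored log2 signal, for the 10 probe sets above the floor on at least 1 array, with KO as red circles, KI as blue squares and WT as grey diamonds; dotted lines stand at 1 in either direction. Lcn2 160564_at in WT cells (3.23) lies farthest to the right, and Saa3 moved most in KO cells (2.41).

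Hp, the haemoglobin-binding acute-phase protein, was lower after stimulation in each genotype. Its signal was 373 in stimulated and 448 in untreated KO cells, 308 and 644 in KI cells, and 601 and 1190 in WT cells. The stimulated signal was 1.20-fold below the untreated one in KO, 2.09-fold in KI and 1.98-fold in WT cells. Hp was 2.65-fold lower in untreated KO and 1.85-fold lower in untreated KI cells than in WT cells, and 1.61-fold and 1.95-fold lower after stimulation.

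Clu, the extracellular chaperone, differed between genotypes by about as much in both states on its brighter probe set. Clu 95286_at read 210 and 207 in stimulated and untreated KO cells, 153 and 187 in KI cells, and 569 and 582 in WT cells. KO cells were 2.72-fold and 2.81-fold below WT when stimulated and untreated, and KI cells were 3.72-fold and 3.12-fold below it. Clu 161294_f_at, whose suffix marks probes shared within a sequence family, read 279 and 48.8 in KO, 80.7 and 27.8 in KI and 298 and 141 in WT cells. On it stimulated KO cells were within 1.07-fold of WT, so the probe sets of Clu disagreed for stimulated KO cells.

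Camp, the cathelicidin precursor, had its lowest signal in untreated KO cells. It read 273 and 118 in stimulated and untreated KO cells, 162 and 203 in KI cells, and 334 and 372 in WT cells. The untreated KO signal was 3.15-fold and the untreated KI signal 1.83-fold below WT. After stimulation KO cells were 1.22-fold and KI cells 2.06-fold below WT, and the KO signal was 2.32-fold the untreated one while those of KI and WT cells were 1.25-fold and 1.11-fold lower. With the floor at the 60th percentile in place of the 40th, the Camp change in KO cells was 0.12 on the log2 scale in place of 1.21.

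Counted over the 10 probe sets, the stimulated KO signal was at least 2-fold below WT in 6, against 3.24% of all probe sets, and above it by that much in 0, against 2.57%. In untreated cells KO was at least 2-fold below WT in 6, against 4.3% of all probe sets, and above it in 0, against 6.3%. KI was that far below WT in 8 of the 10 after stimulation, against 4.92%, and in 4 when untreated, against 10% of all probe sets. KI was at least 2-fold above WT in 0 in either state, against 1.89% and 8.12%. The median difference of the 10 probe sets was -1.29 and -1.21 for KO and -1.75 and -0.88 for KI on the log2 scale, in stimulated and untreated cells, while the medians of all probe sets were 0, -0.04, -0.003 and -0.11. The KO and KI differences share the WT arrays, and probe sets of 1 gene are not independent. Because the 6 genes were chosen with earlier results of these data known, their counts above background are not an independent result. A single high WT preparation and a low level in both altered genotypes cannot be told apart in these data.

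**Figure D3:**
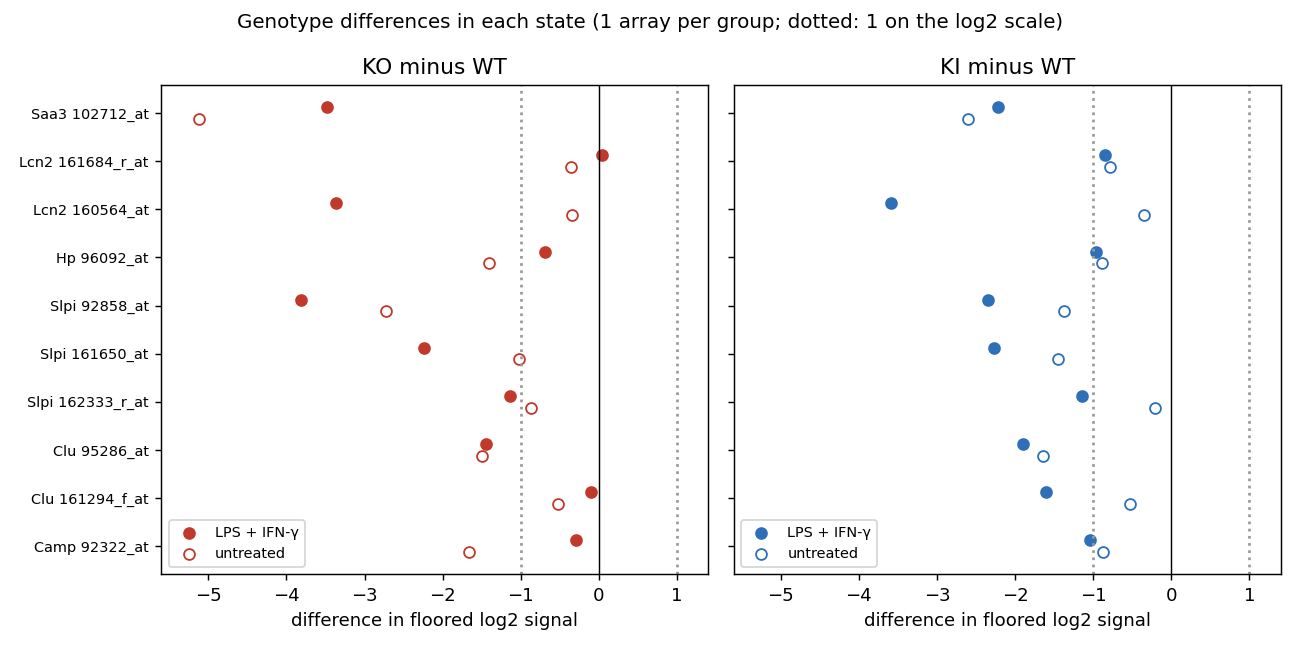
Difference from WT in floored log2 signal for KO (left) and KI (right), with stimulated cells as filled and untreated cells as open circles, for the 10 probe sets above the floor on at least 1 array; dotted lines stand at 1 in either direction. All points but 1 lie left of 0, the exception being Lcn2 161684_r_at in stimulated KO cells (0.05).

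The place of the knock-in differed between genes. In stimulated cells KI lay between KO and WT for Saa3 and for Slpi 92858_at, and at or below KO for the other 8 of the 10 probe sets. In untreated cells 5 lay between, those of Saa3, Hp, Camp and 2 of Slpi, and 5 at or below KO, counting signals under the floor as equal. KO and KI were both under the floor for stimulated Slpi 162333_r_at and for untreated Lcn2 160564_at and Clu 161294_f_at. The gap was small for stimulated Slpi 161650_at (627 in KI and 642 in KO cells). The share of all probe sets in each place was not counted, so these counts are descriptions only. Against KO, KI was at least 2-fold higher in 2 of the 10 after stimulation, against 1.49% of all probe sets, and in the same 2 when untreated, against 2.84%. These were Saa3 and Slpi 92858_at. KI was at least 2-fold lower than KO in 1 after stimulation, Clu 161294_f_at, against 2.76%, and in 0 when untreated, against 5.36%.

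Within a genotype, the change with stimulation had a size of at least 1 on the log2 scale in few of the 10 probe sets. In KO cells 3 were higher, against 6.54% of all probe sets, and 0 lower, against 9.69%. In KI cells 1 was higher, against 5.58%, and 1 lower, against 8.01%. In WT cells 4 were higher, against 8.54%, and 0 lower, against 10.1%. The probe sets differed between genotypes. Those of KO cells were Saa3, Camp and Clu 161294_f_at, those of WT cells Lcn2 160564_at, Slpi 92858_at, Slpi 161650_at and Clu 161294_f_at, and those of KI cells Saa3 as higher and Hp as lower. The change in KO minus that in WT cells was at least 1 in 2 of the 10, Saa3 and Camp, against 5.36%, and at most -1 in 3, against 7.18%, which were Lcn2 160564_at and the brighter pair of Slpi. The change in KI minus that in WT cells was at most -1 in 2, against 8.87%, and at least 1 in 0, against 6.77%. Against KO, the change in KI cells was at most -1 in 3, against 4.09%, and at least 1 in 0, against 5.07%. None of these differences has a test, and they share arrays. Those near the floor depended on it. With the floor at the 20th percentile the change of Lcn2 160564_at was 1.71 in KO and 1.08 in KI cells, and with it at the 60th percentile that of Clu 161294_f_at was 0.15 in KO and 0.25 in WT cells.

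Tests were possible only across genotypes or across states, in a limma fit of all 6 arrays with genotype and stimulation as terms and 2 residual degrees of freedom. Its error is the variation of a response between genotypes, which also holds the noise of single preparations, cultures and arrays. With 1 array per group these cannot be separated. Variation between animals or cultures of the same genotype was not measured. For stimulation 0 of the 10 probe sets passed an adjusted p of 0.05, while 5.03% of all 9344 probe sets rose and 6.01% fell (470 and 562, or 269 and 113 with each array centred on its median). At an unadjusted p under 0.05 in limma, 27.2% of all probe sets were counted, among them Saa3, Hp and Clu 161294_f_at. Saa3 came nearest, with a mean log2 change of 1.44 (SE 0.33, limma adjusted p = 0.0566), and it was higher after stimulation in 3 of 3 genotypes. It passed with the floor at the 60th percentile (adjusted p = 0.0421), with a pseudocount of 50 in place of the floor (0.00457) and with the filter at 3 arrays (0.0108), all in limma. Hp had -0.77 (SE 0.24, limma adjusted p = 0.112) and was lower in 3 of 3 genotypes. For Lcn2 160564_at the mean was 1.15 (SE 0.68, limma adjusted p = 0.35), and 0.11 without either WT array. With a pseudocount of 50 in place of the floor, Lcn2 160564_at (1.44, limma adjusted p = 0.0368) and Clu 161294_f_at (1.12, limma adjusted p = 0.0288) passed as well.

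For KO against WT over both states, 0 of 9344 probe sets (0%) passed in limma, with 10.1% at an unadjusted p under 0.05, and Cebpb itself did not pass (-6.19, limma adjusted p = 0.0774). Saa3 had -4.30 (SE 0.40, limma unadjusted p = 0.000116, adjusted p = 0.404) and Slpi 92858_at -3.27 (SE 0.31, limma unadjusted p = 0.00013, adjusted p = 0.404), the largest negative values after Cebpb. Their calls depended on how weak signals were treated. With the filter at 3 arrays 3 probe sets were lower in KO in limma, and these included Saa3 (adjusted p = 0.00905) and Slpi 92858_at (adjusted p = 0.0167), and with a pseudocount of 50 in place of the floor Saa3 and Slpi 92858_at had limma adjusted p of 0.00083 and 0.00459. Without the stimulated WT array, 495 probe sets were lower in KO, Slpi 92858_at among them (limma adjusted p = 0.0486). Clu 95286_at had -1.47 (SE 0.29, limma adjusted p = 0.432), Hp -1.05 (SE 0.29, limma adjusted p = 0.432), Lcn2 160564_at -1.86 (SE 0.83, limma adjusted p = 0.531) and Camp -0.97 (SE 0.47, limma adjusted p = 0.549).

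For KI against WT, 1 probe set with no gene symbol passed as lower (0.0107% of all), 17.1% had an unadjusted p under 0.05 in limma, and none of the 10 passed. Saa3 had -2.41 (SE 0.40), Slpi 92858_at -1.855 (SE 0.31) and Clu 95286_at -1.77 (SE 0.29), all with limma adjusted p = 0.224. With a pseudocount of 50 in place of the floor these 3 and Slpi 161650_at passed, with limma adjusted p from 0.0183 to 0.0385. For KI against KO 0 probe sets passed in limma and 7.52% had an unadjusted p under 0.05. Saa3 had 1.89 (SE 0.40) and Slpi 92858_at 1.41 (SE 0.31), both with limma adjusted p = 0.615, and neither passed under any alternative tried.

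Some markers of other cells moved with the genotypes. Of 10 mesothelial and fibroblast markers, 8 exceeded the floor on some array, and their summed signal was 2577 and 2741 in stimulated and untreated KO cells, 2693 and 2836 in KI cells, and 5838 and 5102 in WT cells. In each state 2 of the 8 were at least 2-fold lower in KO than in WT cells, Dcn and Col3a1. The share of all probe sets was 3.24% in stimulated and 4.3% in untreated cells. Dcn, the matrix proteoglycan decorin, read 578 and 582 in KO, 794 and 337 in KI and 2880 and 1967 in WT cells. Dcn alone made up 2880 of the summed 5838 in stimulated WT cells. Col3a1, a fibrillar collagen, read 80.1 and 124 in KO, 50 and 141 in KI and 276 and 360 in WT cells. Col1a1, another collagen, read 357 and 359 in KO, 456 and 692 in KI and 637 and 304 in WT cells, so that untreated WT was the lowest genotype. The mesothelial markers Msln and Krt19 were under the floor on all 6 arrays, Upk3b was between 204 and 287, and Wt1 exceeded the floor only on the WT arrays (138 stimulated and 189 untreated). Mesothelial cells and fibroblasts can express Slpi, Clu and Saa3, and the part of such cells in the differences above was not tested. In bulk RNA, fewer cells of a type and less RNA per cell cannot be told apart.

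Neutrophils carry Camp, Lcn2, Hp and Slpi. Of 13 neutrophil markers 9 exceeded the floor somewhere, with summed signals of 2000 and 2571 in KO, 2022 and 3687 in KI and 2908 and 3170 in WT cells. Such sums follow the brightest genes of a list, and Mmp9 alone made up 1922 of the 3687 in untreated KI cells. S100a9, Ngp, Cxcr2 and Ctsg were under the floor on all 6 arrays. S100a8 read 277 and 195 in KO, 211 and 556 in KI and 1073 and 507 in WT cells. Csf3r differed little between KO and WT, with 1066 and 1148 in KO, 1042 and 705.5 in KI and 1001 and 1219 in WT cells. Without stimulation, Ltf (154 in KO and 113.5 in WT cells), Prtn3 (187 and 155) and Mmp9 (138 and 95.3) had more signal in KO cells. Elane (338 and 375), Mmp8 (293 and 493) and Mpo (55.7 and 110) had more in WT cells. The signals of 95.3 and 55.7 were under the floor. Ly6g, a defining neutrophil marker, exceeded the floor only on the untreated WT array (103). Of the hepatocyte markers, Alb read 88.4 and 115 in KO, 70.3 and 145 in KI and 131 and 328 in WT cells, while Ttr went the other way, with 114 and 115 in KO and all KI and WT signals under the floor. Cyp2e1 read 300.1 and 162 in KO, 229 and 234 in KI and 325 and 372 in WT cells, and Apoa1 was under the floor on all 6 arrays. B cell markers had summed signals of 1825 and 3745 in KO, 1154 and 1442 in KI and 1831 and 4026 in WT cells. Of 6 such markers, 4 were at least 2-fold lower in untreated KI than in untreated WT cells, against 10% of all probe sets. Dendritic cell markers had summed signals of 13470 and 4529 in KO, 12620 and 10400 in KI and 6670 and 4222 in WT cells. Itgax alone made up 7301 of the 10400 in untreated KI cells. In stimulated KO cells 4 of 6 were at least 2-fold above WT, against 2.57% of all probe sets, and 0 below, against 3.24%. In stimulated KI cells 1 was that far above WT, against 1.89%, and 1 below, against 4.92%. Flt3 went the way of the 6 genes in stimulated cells (262 in KO, 138 in KI and 414 in WT cells). The part of neutrophils, B cells, dendritic cells or liver RNA in the genotype differences was not tested.

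**Figure D4:**
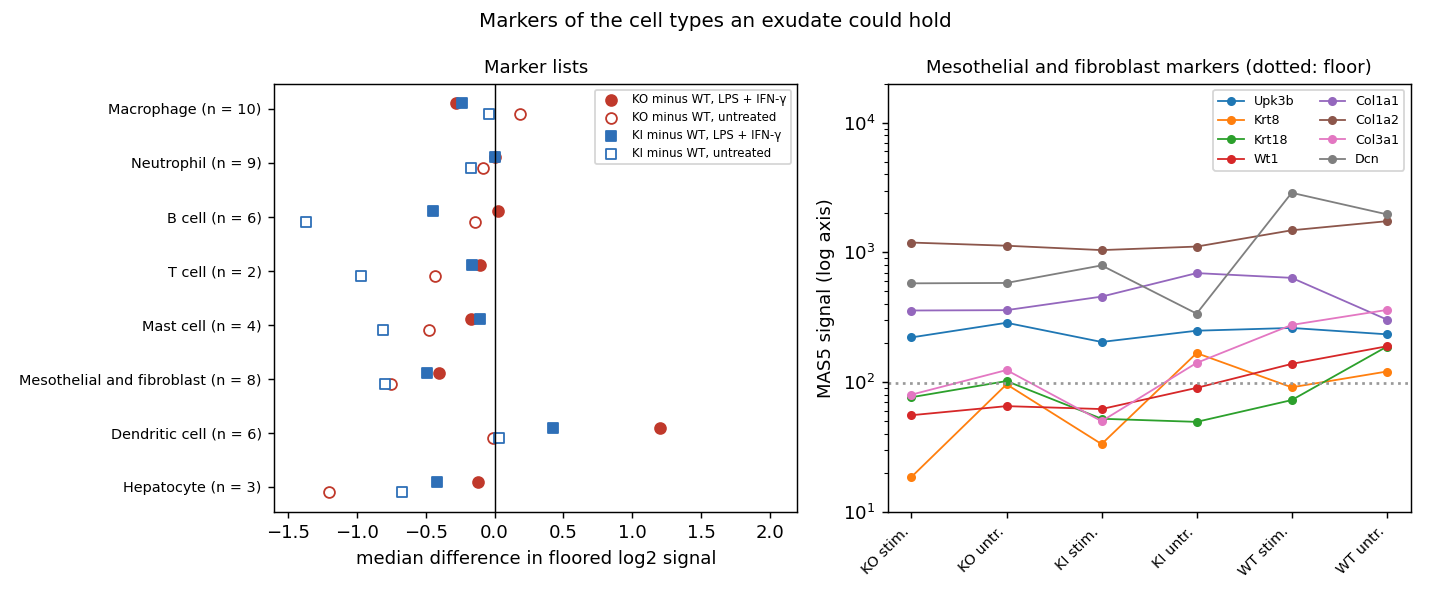
Left, median difference from WT in floored log2 signal for each marker list with at least 2 genes above the floor (KO red circles, KI blue squares, filled stimulated, open untreated); right, MAS5 signal (log axis) of the 8 mesothelial and fibroblast markers on each array, lines joining the values of 1 gene and the dotted line at the floor of 98.0. Dcn and Col3a1 are highest on the WT arrays, while Upk3b lies between 204 and 287 throughout.

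Other genes of the response were counted from 4 lists, beside 5.03% of all probe sets that rose and 6.01% that fell with stimulation in limma, and 3.24% that were at least 2-fold lower in stimulated KO than in stimulated WT cells. Of 17 plasma acute-phase genes, mostly liver products, 15 were on the array and 11 exceeded the floor. In limma 1 of them rose with stimulation, Mt2, a metal-binding metallothionein (1.54, SE 0.20, adjusted p = 0.0142), and 0 passed for KO against WT. Their median KO minus WT difference was 0 in stimulated and -0.24 in untreated cells. The stimulated median was set by the floor. For Crp, Apcs, Fga and Apoa2 both stimulated signals lay under it, so their difference was counted as 0 without being measured. Saa2, a liver serum amyloid A close in sequence to Saa1, read 261 and 130 in KO, 296 and 297 in KI and 57.6 and 179 in WT cells on a probe set of the sequence-family kind. In stimulated cells WT was the lowest genotype for Saa2 and the highest for Saa3, while KI was above KO for both. Cp, the copper oxidase ceruloplasmin, exceeded the floor only on the WT arrays (143 stimulated and 102.5 untreated), and Orm2 only on the stimulated WT array (116).

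Of 20 neutrophil and secreted defence genes, 10 exceeded the floor, 1 rose with stimulation in limma and 0 passed for KO against WT. The riser was Cfb, complement factor B (1.10, SE 0.20, adjusted p = 0.0334), which read 264 and 110 in KO, 174 and 84.6 in KI and 262 and 113 in WT cells, with no gap between KO and WT. Chil3, a chitinase-like protein secreted by macrophages, read 370 and 862 in KO, 120 and 123 in KI and 640 and 2329 in WT cells. Mmp9, the gelatinase, was highest in untreated KI cells at 1922, against 510 in stimulated KI cells, and read 169 and 138 in KO and 259 and 95.3 in WT cells. Of the 10 genes, S100a8 alone was at least 2-fold lower in stimulated KO than in stimulated WT cells.

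Cytokine and transcription factor inputs of the response were higher after stimulation in all 3 genotypes for the 4 genes named here. Of 21 such genes 17 exceeded the floor, and 8 rose and 1 fell with stimulation in limma (5.03% and 6.01% of all probe sets), with a median of 0.71 against -0.12 over all probe sets. Il6, the cytokine that drives the hepatic response, read 1257 and 53.3 in stimulated and untreated KO cells, 660 and 2.7 in KI cells, and 1908 and 87.7 in WT cells. Il1b read 3870 and 121 in KO, 2396 and 68.0 in KI and 7088 and 53.7 in WT cells, and Tnf 9610 and 467, 14220 and 402, and 13550 and 206 in the same order. Socs3, the feedback inhibitor of interleukin 6 signalling, read 2120 and 201 in KO, 2592 and 117 in KI and 3117 and 229 in WT cells. Each of these 4 rose in limma (adjusted p from 0.00202 to 0.00751), and none was at least 2-fold lower in stimulated KO than in stimulated WT cells. The genes that were, 3 of the 17 against 3.24% of all probe sets, were Il1a, Il1r1 and Cebpb. Cebpb is the gene targeted in KO cells, so its place in this count was fixed by the design. The stimulated KO signal of Il1r1 (55.7) was under the floor. Stimulated KI cells were at least 2-fold below WT for 3 of the 17, Il6, Il1b and Il6ra, against 4.92% of all probe sets. Stimulated KI cells were that far above WT for 0, against 1.89%.

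Receptors and partners of the secreted proteins were measured in 12 of 18 cases, with 1 riser and 1 faller in limma. Fpr2, a formyl peptide receptor that also binds serum amyloid A and cathelicidin peptides, rose by 3.89 (SE 0.34, adjusted p = 0.00527), and read 926 and 14.6 in KO, 1271 and 13.5 in KI and 3314 and 125 in WT cells. The fall was that of Cd36, a scavenger receptor (-1.75, SE 0.21, adjusted p = 0.0117). Hmox1, which breaks down haem, read 12370 and 11800 in KO, 16710 and 7003 in KI and 23930 and 12550 in WT cells. Plscr1, a membrane protein reported to bind Slpi, read 375 and 400 in KO, 339 and 530 in KI and 621 and 498 in WT cells.

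The genes with the most similar profiles over the 6 arrays were found by the root mean square difference in log2 after each profile was centred on its own mean. The comparison ran over 1 array per group and 5389 genes above the floor on at least 4 arrays, or 5762 above it on at least 3 for Lcn2 160564_at and Clu 161294_f_at, which exceeded it on 3 themselves. For Saa3 they were Ptgis, prostacyclin synthase (1.15), and Clec4e, a glycolipid receptor (1.205), neither of them close on the scale of the Saa3 profile's own spread of 1.94. Ptgis was also nearest to Slpi 92858_at (0.60), followed by Sparc, a matrix protein (0.635), and Slpi 161650_at was nearest to Ghrl (0.28) and Dcn (0.38). For Lcn2 160564_at they were Htra1, a secreted protease, and Ptges, the inducible prostaglandin E synthase, both at 0.52, and for the flat Lcn2 161684_r_at F2rl2 (0.083) and Mef2b (0.084). Clu 95286_at was nearest to Orm3, an orosomucoid gene outside the lists used here (0.14). Orm3 read 165 and 131 in KO, 101 and 116 in KI and 328 and 383 in WT cells. Col3a1 came next for Clu (0.24). For Hp they were Chst3 (0.15) and Alb (0.18), and for Camp Ctdp1 (0.10) and Calm2 (0.145).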

How the data were processed

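RNA was extracted with Trizol and labelled with biotin, per the labels' protocols. The deposited table holds linear signal intensity for 12488 probe sets, which the authors made with MAS5, as the submitters' processing notes state. Its version and scaling target, and any detection calls, were not given in the sources used. Each array was scaled so that trimmed means (2% from each end) were equal, floored at 98.0 and converted to log2. After removal of 66 control probe sets, 9344 of the other 12422 exceeded the floor on at least 1 array. Gene names came from the platform annotation (10833 probe sets with 1 symbol, 396 with several, 1193 with none) and RefSeq's GRCm38.p6 table, which changed 0 symbols. Lists used 1 probe set per gene, the one with the highest mean log2 signal. The test was limma 3.58.1 in R 4.3.3 (lmFit, eBayes with an intensity trend, Benjamini-Hochberg over 9344 probe sets at 0.05), with genotype and stimulation as terms. Other differences have no test and were called by a size of at least 1 on the log2 scale. The number of arrays limits the precision. The code was tested on simulated data. The genes and lists were chosen with earlier results of these data known. Named beside the 6 genes are Cebpb, up to 4 genes of each list (those past the stimulation or KO test by size, then those with the largest difference between stimulated KO and WT cells), markers, and the 2 nearest profiles per probe set. The alternatives were other floors, a pseudocount, other scalings and filters, a fit without the intensity trend, and leaving out each array.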

Additional observations from a re-analysis of the deposited data

Results flagged for a closer look

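Within the 10 probe sets, 3 differences in induction were flagged. In each, one genotype moved up and another down with stimulation, by at least 1 on the log2 scale between them. The share of all probe sets that meet this rule was not counted. None was tested, since each induction comes from 1 pair of arrays. Slpi 161650_at changed by -0.20 in KO and by 1.01 in WT cells, a difference of -1.215. Camp changed by 1.21 in KO and by -0.15 in WT cells, a difference of 1.37. Against KO, Camp in KI cells changed by -0.33, a difference of -1.54. With the floor at the 60th percentile the Camp differences were 0.28 for KO against WT and -0.12 for KI against KO.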

How the results depend on the processing

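With 1 array per group, the tests rest on 2 residual degrees of freedom and on the variance that eBayes shares over probe sets. The sizes within a state rest on single arrays, so weak signals near the floor limit what can be compared. The stimulation test compared the 2 states within each genotype, through the genotype term. No pairing by animal or culture was possible, because the labels give no replicate numbers and each group has 1 array. For KO against WT, KI against WT and the change with stimulation, the directions of Saa3, Hp, Slpi 92858_at and Lcn2 160564_at were kept under every alternative tried.

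Counts of probe sets past the limma threshold changed with the setting. For stimulation, 470 were higher and 562 lower, and the counts were 666 and 969 with a pseudocount of 50 in place of the floor, 389 and 361 with quantile normalization, 269 and 113 with each array centred on its median (70.4% higher, against 45.5%), 49 and 20 without a filter, and 645 and 930 with the filter at 3 arrays. For KO against WT, 0 were higher and 0 lower. The counts were 0 and 1 with the floor at the 20th percentile, 2 and 5 with the pseudocount and 0 and 3 with the filter at 3 arrays. For KI against WT, 0 were higher and 1 lower, and the counts were 28 and 45 with the pseudocount, 2 and 2 without a filter and 2 and 3 with the filter at 3 arrays. They were 0 and 0 with the floor at the 60th percentile, quantile normalization, median centring and the fit without an intensity trend. For KI against KO, 0 were higher and 0 lower, and the counts were 1 and 1 with the floor at the 20th percentile, 6 and 8 with the pseudocount and 1 and 2 with the filter at 3 arrays.

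Leaving out 1 array left 0 to 15 probe sets higher and 0 lower with stimulation, 0 to 3 higher and 0 to 495 lower in KO than in WT, and 0 to 12 higher and 0 to 527 lower in KI than in WT. The counts for KO and KI against WT were above 0 only without the stimulated WT array.

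Counts of differences of at least 1 on the log2 scale depended on the floor. With the floor at the 20th percentile the change with stimulation passed in 2592 (KO), 2259 (KI) and 3099 (WT) probe sets, against 1516, 1269 and 1740 in the main setting, and with it at the 60th in 942 (KO) and 973 (WT). For KO minus WT the counts were 1518 (stimulated) and 2265 (untreated) with the lower floor, 543 and 991 in the main setting, and 217 and 325 with the higher floor. For KI minus WT they were 1861 and 3481, 637 and 1694, and 209 and 693, and for KI minus KO 1458 and 1927, 397 and 766, and 120 and 329, in the same order. The difference in change passed in 2755, 1172 and 413 probe sets for KO minus WT, in 3233, 1462 and 625 for KI minus WT, and in 2320, 856 and 348 for KI minus KO.

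Values that turned sign are as follows, and the cause was not tested. For KI against KO, Slpi 162333_r_at was at -0.065 with the floor at the 20th percentile and Camp at -0.061 with it at the 60th and at -0.01 with the pseudocount. For stimulation, Camp was at -0.01 with the floor at the 60th percentile, Lcn2 161684_r_at at 0.034 and Clu 95286_at at 0.029 with quantile normalization, and they were at 0.062 and 0.077 with median centring. The change of Clu 161294_f_at in KI minus WT cells was at 0.281 with the floor at the 20th percentile, against -1.08. With 1 array left out, values of KI against KO ran from -0.97 to 0.755 for Lcn2 160564_at, from -0.713 to 0.74 for Camp, from -0.258 to 0.503 for Hp, from -0.066 to 0.729 for Slpi 162333_r_at and from -0.632 to 0.172 for Slpi 161650_at. Those of KO against WT ran from -0.375 to 0.063 for Lcn2 161684_r_at and from -0.793 to 0.176 for Clu 161294_f_at. Those of stimulation ran from -0.239 to 0.53 for Camp and from -0.005 to 0.602 for Slpi 161650_at.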
